A study of Mus musculus with 56 samples.

Results

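The genes described here are 10 imprinted genes that lie outside the Dlk1-Dio3 and Igf2-H19 loci: Peg3, Plagl1, Mest, Cdkn1c, Grb10, Igf2r, Ndn, Zim1, Kcnq1ot1 and Peg10. They were taken by symbol from the gene expression table of mouse liver, where each of them has 1 row among 21888 symbols, and the rule that picks them uses no measured value. The comparison asks whether imprinted genes elsewhere in the genome rose together with Meg3 and H19 after removal of miR-122, the most abundant microRNA of the adult liver. All 14 RNA-seq libraries come from whole liver of mice with the 129Sv/J strain background. The day 0 group (3 libraries) is liver of uninjected adult mice whose miR-122 gene is flanked by loxP sites. The day 21 (3), day 45 (3), day 100 (1) and day 200 (1) groups are livers of the same floxed line taken that many days after tail vein injection of an adeno-associated virus that expresses Cre from the Ef1a promoter, which is active in many cell types. The knockout group (3 libraries) is liver of mice with a germline knockout of miR-122 that received no virus. No group received a virus without Cre, so the effects of miR-122 removal, of the vector and of time since injection cannot be told apart. Ages were not given in the sources used here. The small RNA replicates of the time course and of development are separate mice per the study. The RNA-seq replicates carry letters, and since the labels do not say whether each is a separate mouse, the tests on them measure the spread between libraries. Small RNA libraries of the same floxed time course, of wild-type development and of LKO mice were used for the 1 microRNA that lies inside a member gene. The LKO libraries are labelled LKO_flox (2) and LKO_floxCre (2). The study describes its liver-specific knockout as driven by Cre under the Albumin promoter, which is active in hepatocytes, and names the second group LKO with added Cre.

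Imprinted genes are transcribed mainly from 1 parental copy, the choice being set by DNA methylation laid down in the egg or sperm. Many of them act on growth: the paternally expressed ones (Peg3, Plagl1, Mest, Peg10, Ndn and the noncoding Kcnq1ot1 here) are often growth promoting, and the maternally expressed ones (Cdkn1c, Grb10, Igf2r, Zim1) include several that restrain growth. In mouse liver a number of them are high before birth and fall after weaning, as Meg3, H19 and Igf2 do. Expression is given in FPKM, the number of sequenced fragments scaled to transcript length and to library size, so that levels of different genes can be compared per length.

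One member carries a microRNA. The Mest gene on mm9 chr6:30673547-30698457, plus strand, holds the miR-335 hairpin at chr6:30691299-30691396, outside every annotated Mest exon. The RefSeq mature sequences of its arms, which identify what the small RNA libraries counted at this imprinted locus, are given 5′ to 3′ with the seed (bases 2 to 8) in capitals. The 5p arm lies at chr6:30741314-30741336 and the 3p arm at chr6:30741354-30741375 of GRCm38.p6, plus strand.
miR-335-5p: uCAAGAGCaauaacgaaaaaugu
miR-335-3p: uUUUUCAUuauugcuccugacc
The arms have different seeds, and the deposited table lists 1 value for miR-335 with no arm named.

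The promoters of the members were searched for TGCCGC on both strands, the letters recognised in methylated form by ZFP57, the zinc finger protein that protects imprints in the embryo. RefSeq promoters (GRCm38.p6, 250 bases before to 50 after the start site) were found for 8 members, with 11 start sites. The letters occurred in 5 of those 11 windows, 2 of them Mest windows that overlap almost completely, against 11.6% of all 32851 promoters. The stretches of 30 bases around 1 match in each of 3 members are shown because these genes are followed below, with GCGGCA, the match as read on the gene's own strand, in capitals.
Mest (chr6:30737971-30738000, plus strand): aggaggggcgctGCGGCAggatgggcgggt
Plagl1 (chr10:13090730-13090759, plus strand): ctggcgtgttgcGCGGCAaagcccacggca
Grb10 (chr11:12037379-12037408, minus strand): gggtgcggggagGCGGCAggaagggaaggg
The fourth member with a match is Zim1. In CpG, the dinucleotide that carries DNA methylation, the windows with a match hold 45 (Grb10), 26 (Plagl1), 20 (Zim1) and 17 (Mest), where the median promoter holds 7. Among the windows without a match, that of Igf2r holds 34 and the others 8 to 13. Outside the members, 1 Meg3 window also holds 1 match, with 13 CpG, and the other Meg3 window holds 0 matches and 1 CpG. A match is a description of the letters, and no binding or methylation was measured in these libraries.

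The members were low in adult liver. Igf2r had the highest level, 6.41 ± 1.02 FPKM (SD, n = 3) in uninjected liver, above 57.4% of the genes tested. Grb10, Mest, Peg3, Cdkn1c and Ndn had day 0 means between 0.661 and 1.35 FPKM, and Plagl1 and Peg10 lay at 0.233 and 0.251 FPKM. Zim1 and Kcnq1ot1 stayed under the minimum mean of 0.1 FPKM and were left out of the main test. The steps between low FPKM values put the depth at about 24.75 to 56 M fragments per library (1 M is 1000000), lowest in the knockout group with 24.75 to 29.5 M. At that depth Ndn rested on approximately 34 to 94.9 fragments per library, Plagl1 on 41.4 to 276.1 and Igf2r on 1283.4 to 6903.8, so the change of Igf2r is the most precisely measured.

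Each change is a log2 change of FPKM + 0.1 with its SE from 1 limma fit of all genes, and a gene is said to rise or fall where its Benjamini-Hochberg adjusted p was under 0.05. The day 100 and day 200 livers, 1 library each, were fitted as 1 late group. The study reports that miR-122 partly returns by these times. In the small RNA libraries it made up 4.46% of reads at day 100 and 19.1% at day 200, against 0.383% to 1.23% at day 45. The late group therefore does not stand for a longer complete loss of miR-122. Some features of the whole series touch every result. After Cre the typical gene rose on this scale: over the 14104 genes tested the median log2 change from day 0 was 0.12 for day 21, 0.33 for day 45, 0.47 for the late livers of days 100 and 200, and 0.11 for the knockout. Marker lists of other cell types rose as well, and in whole liver more cells of a type and more RNA per cell cannot be told apart. At day 45, 10 of 10 stellate cell and fibroblast genes, 7 of 7 macrophage genes, 7 of 8 lymphocyte genes, 6 of 7 cholangiocyte genes and 6 of 8 proliferation genes rose, against 3 of 7 endothelial genes and 1 of 5 fetal liver and erythroid genes. In the late livers 10 of 10 stellate cell and fibroblast, 7 of 7 cholangiocyte, 8 of 8 lymphocyte, 8 of 8 proliferation, 5 of 7 macrophage, 3 of 7 endothelial and 2 of 5 fetal liver and erythroid genes rose. Summed stellate cell and fibroblast FPKM was 30.6 to 42.8 at day 0, 134 to 337 at day 45, 262 to 321 late and 88.9 to 148 in the knockout, and summed cholangiocyte FPKM was 50.2 to 65.2, 411 to 1340, 1930 to 2930 and 559 to 805. Summed hepatocyte FPKM was far above these, with Alb listed at 0 in all 14 libraries. Serpina1a, another abundant hepatocyte gene, is listed at 0 in every library of days 0, 21, 45 and 200, at 987 FPKM at day 100 and at 1290 to 2040 in the knockout, so its change is not read. Without Serpina1a the hepatocyte sum lay at 26300 to 28800 at day 0, at 24900 to 26100 at day 21 and at 20000 to 25900 at day 45. It lay at 14100 to 22500 late and at 22500 to 29500 in the knockout. Day 21, day 45 and the late livers were thus all below day 0. None of the other 6 hepatocyte genes tested passed the test at day 45 or late. Knockout replicate C stood apart from A and B: without it the number of genes called in the knockout went from 5010 to 8577. The part of these shifts in the members' changes was not tested.

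Meg3 and H19 set the scale of reactivation. Meg3, the long noncoding RNA of the Dlk1-Dio3 locus, was at 0.392, 0.181 and 0.348 FPKM in the uninjected livers and at 12.7, 89.4 and 61.3 FPKM at day 45, a log2 change of 6.71 ± 0.72 (SE). H19 went from 2.03, 0.415 and 0.486 FPKM to 392, 845 and 66.3 FPKM, a log2 change of 8.34 ± 0.94. No member came near these changes: over the 8 members tested the day 45 change ran from 0.18 to 1.24, with a median of 0.59 beside 0.33 for all genes.

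**Figure D1:**
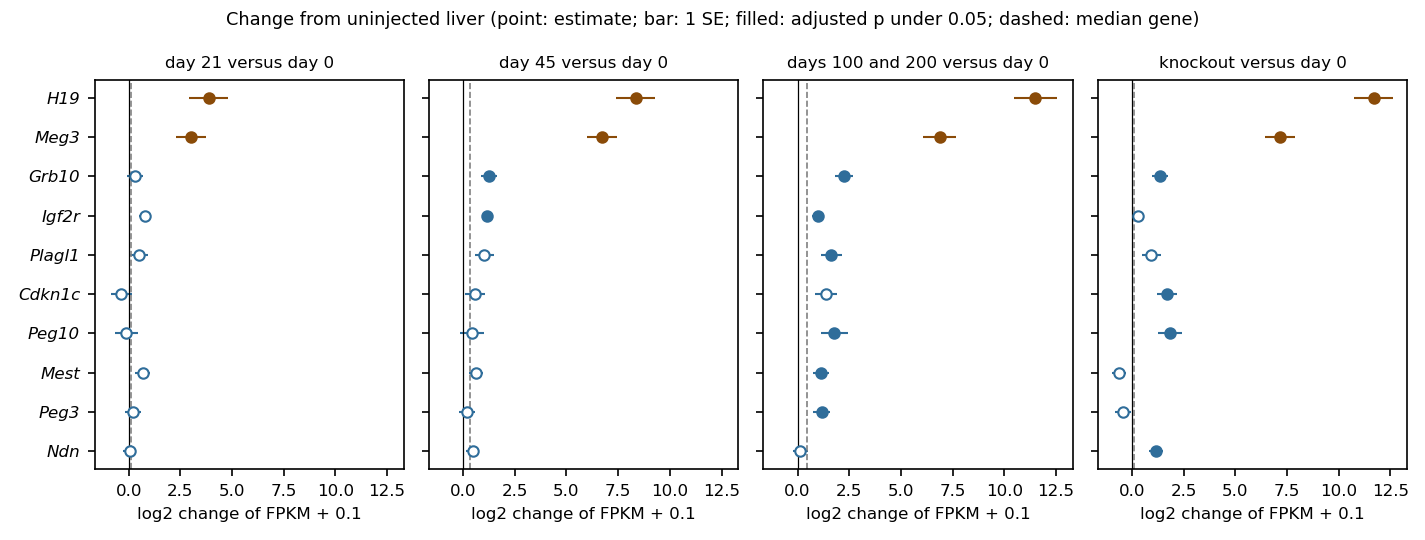
Log2 change of FPKM + 0.1 from uninjected liver for H19 and Meg3 (brown) and the 8 members tested (blue) in 4 comparisons, with estimates as points, 1 SE as bars, filled points for adjusted p under 0.05 and the median gene as a dashed line. H19 and Meg3 changed by 8.34 and 6.71 at day 45, whereas the members stayed between 0.18 and 1.24.

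At day 21, when 8.47% of all genes were called higher, none of the 8 members passed the test in either direction. At an unadjusted p under 0.05 in limma there was 1 member of 8, Igf2r, where 24.0% of all genes were under it. At day 45, 2 of 8 members rose, Grb10 and Igf2r, and none fell, where 29.4% of all genes were called higher. In the late livers 6 of 8 rose, where 34.6% of all genes did. In the knockout 4 of 8 rose and none fell, where 22.3% of all genes were called higher and 13.2% lower. All 4 comparisons use the same day 0 libraries, so they are not independent of each other. At day 45 the 3 libraries lay above all 3 day 0 libraries for 4 of 8 members, Peg3, Grb10, Igf2r and Ndn, and the same held for 44.8% of all genes.

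**Figure D2:**
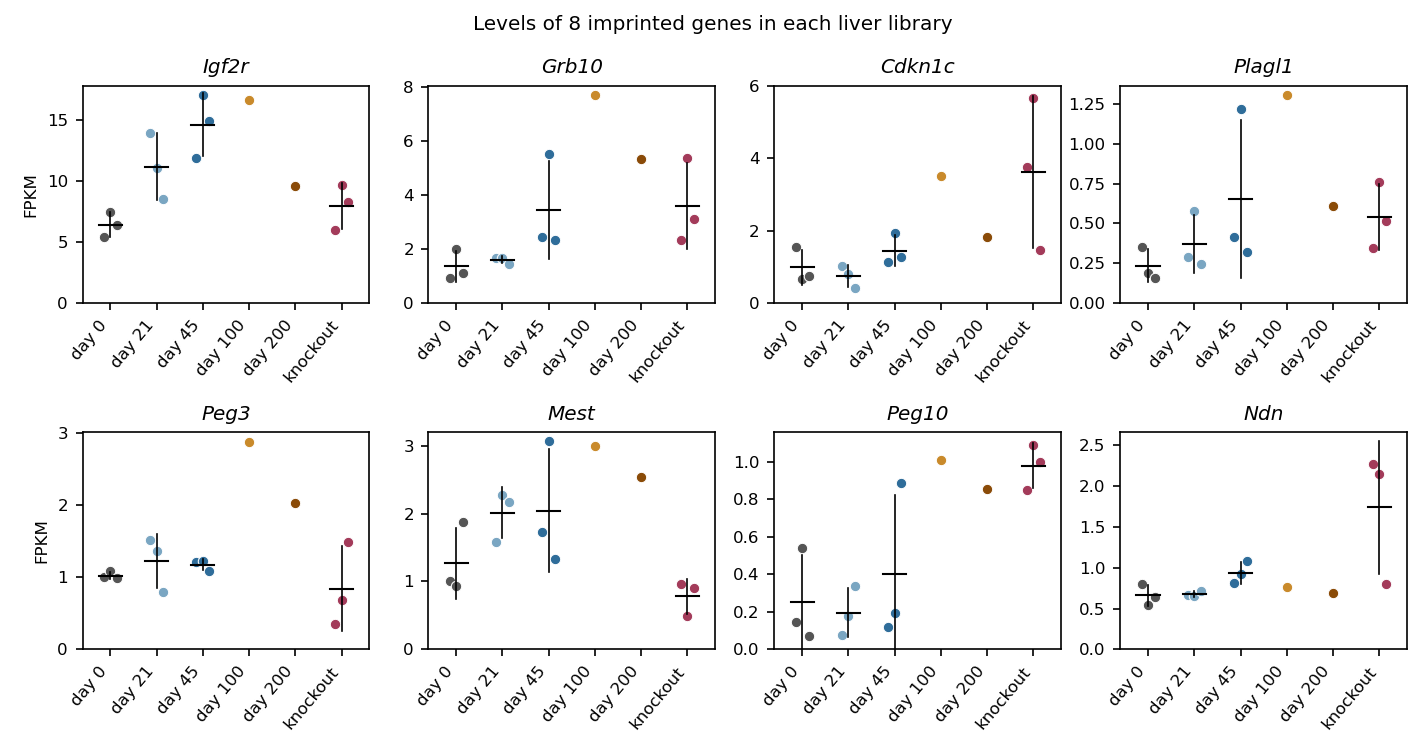
FPKM of the 8 members tested in each of the 14 liver libraries, 1 panel per gene, with every library as a point and, for groups of 3, the mean as a bar and the SD as a line that is cut at 0. Igf2r is above all uninjected livers at every time after Cre, and Grb10 from day 45 on.

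Igf2r encodes the mannose 6-phosphate receptor that binds IGF2 and carries it to the lysosome, and it is expressed from the maternal copy. It lies at mm9 chr17:12875272-12962572 on the minus strand. Uninjected livers had 5.38, 7.42 and 6.42 FPKM, day 21 livers 13.9, 11.1 and 8.52 FPKM, and day 45 livers 11.9, 17.0 and 14.9 FPKM. The day 100 liver had 16.6 and the day 200 liver 9.57 FPKM. All 8 libraries after Cre were above the highest uninjected one. The log2 change was 0.78 ± 0.26 at day 21 (adjusted p = 0.0872), 1.17 ± 0.26 at day 45 (adjusted p = 0.00511) and 0.98 ± 0.30 at days 100 and 200 (adjusted p = 0.0199). The day 45 call held when each library was set to the same median (the centred scale), with a change of 0.84 (adjusted p = 0.0199), and when any library was left out. The late call did not: it was lost without the day 100 library (0.58, adjusted p = 0.28), without day 0 replicate A (0.86, adjusted p = 0.0649) and on the centred scale (0.50, adjusted p = 0.166). In the knockout the values were 5.93, 9.63 and 8.27 FPKM, which overlap the uninjected ones, with a change of 0.29 ± 0.26 (adjusted p = 0.397).

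Airn, the noncoding RNA that starts inside Igf2r on the opposite strand and silences Igf2r on the paternal copy, rose at day 45 and in the late livers, as Igf2r did. Uninjected livers had 0.965, 0.392 and 0.371 FPKM of Airn, and day 45 livers had 3.34, 4.59 and 2.70 FPKM. The change was 2.51 ± 0.44 at day 45 (adjusted p = 0.00136) and 2.42 ± 0.49 at days 100 and 200 (adjusted p = 0.00216), and at day 21 it was 1.07 (adjusted p = 0.157). In the knockout Airn rose by 1.47 ± 0.44 (adjusted p = 0.0231), a call lost in a fit of only the 2 groups (adjusted p = 0.0681) and without day 0 replicate B (1.29, adjusted p = 0.0838) or C (1.26, adjusted p = 0.0801) or knockout replicate B (1.57, adjusted p = 0.053). Whether the counting used strand was not given in the sources used here, so reads of the overlapping Igf2r and Airn cannot be told apart. Of the neighbours of Igf2r, Slc22a3 and Slc22a2, which encode organic cation transporters, did not pass the test at day 45 (0.76 and 0.74, adjusted p = 0.216 and 0.0537), and Slc22a3 rose in the knockout by 1.80 (adjusted p = 0.0085). M6pr, the other mannose 6-phosphate receptor, which is not imprinted, had a change of 0.29 at day 45 (adjusted p = 0.108), and of 0.46 in the late livers (adjusted p = 0.0235) that was lost without day 0 replicate B (adjusted p = 0.0822), the day 100 library (adjusted p = 0.13) or the day 200 library (adjusted p = 0.0878) and came to -0.02 on the centred scale.

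Grb10, an adaptor protein that dampens insulin and IGF1 receptor signalling, lies at mm9 chr11:11830502-11937423 on the minus strand. Its levels were 0.930, 2.00 and 1.11 FPKM in uninjected livers, 1.67, 1.65 and 1.45 FPKM at day 21 and 2.43, 5.52 and 2.33 FPKM at day 45. The day 100 and day 200 livers had 7.68 and 5.32 FPKM. Day 21 overlapped day 0, and from day 45 on every library was above the uninjected ones. The change was 0.29 ± 0.39 at day 21 (adjusted p = 0.725), 1.24 ± 0.39 at day 45 (adjusted p = 0.0265) and 2.23 ± 0.43 at days 100 and 200 (adjusted p = 0.00155). Day 45 replicate B carried much of the day 45 rise, and without it the change was 0.85 (adjusted p = 0.134). The day 45 call was also lost without day 0 replicate A (1.03, adjusted p = 0.103), without day 0 replicate C (1.15, adjusted p = 0.0794) and on the centred scale (0.91, adjusted p = 0.0782). The late call was kept under all 24 alternatives, between 1.68 and 2.54, and was the only member call of any comparison besides Igf2r at day 45 to be so.

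In the knockout Grb10 was at 2.31, 5.37 and 3.09 FPKM, all above the uninjected livers, with a change of 1.34 ± 0.39 (adjusted p = 0.0194). Without knockout replicate B this became 1.01 (adjusted p = 0.0974), and it was also lost without day 0 replicate A (1.12, adjusted p = 0.0692) or C (1.24, adjusted p = 0.0596). Grb7 and Grb14, adaptor relatives that are not imprinted, had changes of -0.55 (adjusted p = 0.053) and -0.01 (adjusted p = 0.976) at day 45. Ddc, the dopa decarboxylase gene next to Grb10, rose at day 45 by 1.27 (adjusted p = 0.00352).

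The genes whose profile over the 14 libraries was most like that of Grb10 were Sox9 (Pearson r = 0.974), Parm1 (0.954) and Fam101a (0.951). Sox9 encodes a transcription factor of bile duct and progenitor cells and is 1 of the cholangiocyte markers that rose. It was at 0.534, 1.02 and 0.546 FPKM in uninjected livers and at 1.82, 5.49 and 1.89 FPKM at day 45, so that replicate B was the highest of the group for both genes. For Igf2r, Plxna1 (0.942) and Lamc1 (0.94) were among the 3 nearest profiles, and encode a semaphorin receptor and a laminin chain. The r of Grb10 was 0.786 with Meg3 and 0.816 with H19, and that of Igf2r was 0.49 and 0.373. These values describe 14 libraries of 6 groups, share their group structure and depth, and were not tested.

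Cdkn1c encodes p57, an inhibitor of cyclin-dependent kinases, and lies at mm9 chr7:150644244-150646955 on the minus strand. Uninjected livers had 1.55, 0.668 and 0.737 FPKM, day 21 livers 1.01, 0.809 and 0.400 FPKM, and day 45 livers 1.13, 1.92 and 1.27 FPKM. Both groups overlapped the uninjected one. The day 100 and day 200 livers had 3.52 and 1.82 FPKM, a change of 1.37 ± 0.55 that missed the threshold (adjusted p = 0.0661). It passed without day 0 replicate A (1.72, adjusted p = 0.0392), without knockout replicate C (adjusted p = 0.0207), with libraries scaled to total FPKM (1.46, adjusted p = 0.0489) and in a fit of only the 2 groups (adjusted p = 0.0498). The knockout livers had 3.76, 5.67 and 1.46 FPKM, with replicate C inside the uninjected range and the others above it, and a change of 1.68 ± 0.49 (adjusted p = 0.0202). That call was lost without knockout replicate A (1.56, adjusted p = 0.07) or B (1.27, adjusted p = 0.0995), and without day 0 replicate B (1.47, adjusted p = 0.0761) or C (1.54, adjusted p = 0.0634).

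Cdkn1b, a relative of Cdkn1c that is not imprinted, had changes of 0.51 at day 45 (adjusted p = 0.238) and 0.77 late (adjusted p = 0.0978). Cdkn1a (p21), another such relative, moved far more. Its mean was 2.56 FPKM at day 0, 52.3 at day 21 and 44.5 at day 45, with a change of 4.21 ± 0.55 at day 45 (adjusted p = 0.000337). It had risen at day 21 already (4.39, adjusted p = 0.00167), when Cdkn1c had a change of -0.36 ± 0.49 (adjusted p = 0.738). Neighbours of Cdkn1c in the same cluster rose at day 45. Phlda2, an imprinted gene that limits placental growth, went from 0, 0.154 and 0.072 FPKM to 1.28, 4.00 and 2.99 FPKM, a change of 3.99 ± 0.45 (adjusted p = 0.000179), and the knockout livers had 1.62, 1.97 and 2.05 FPKM. Kcnq1, a potassium channel subunit, rose by 1.89 (adjusted p = 0.00268), Osbpl5 by 1.62 (adjusted p = 0.00161) and Tspan32 by 1.78 (adjusted p = 0.00636). Osbpl5 encodes a lipid transfer protein and Tspan32 a tetraspanin of blood cells. Cd81, Tssc4 and Nap1l4 in that cluster did not pass the test, with changes of 0.09, -0.17 and 0.18.

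Kcnq1ot1, the long noncoding RNA that silences this cluster on the paternal copy, covers mm9 chr7:150399016-150482452 in the files and was near the bottom of the table. It lay between 0.012 and 0.045 FPKM in the 14 libraries, with 0.023, 0.022 and 0.022 in uninjected livers and 0.018, 0.034 and 0.020 at day 45. The groups overlapped, and without a minimum level its change at day 45 was 0.02 ± 0.08 (adjusted p = 0.934). The pseudocount of 0.1 exceeds these levels, so changes on this scale are compressed. It overlaps Kcnq1 on the opposite strand, and the libraries were poly-A purified.

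Plagl1 (Zac1) encodes a zinc finger transcription factor that regulates other imprinted genes, and lies at mm9 chr10:12810594-12851501 on the plus strand. Levels were 0.354, 0.187 and 0.159 FPKM in uninjected livers, 0.291, 0.578 and 0.244 FPKM at day 21 and 0.413, 1.22 and 0.319 FPKM at day 45, with 1.30 and 0.609 FPKM at days 100 and 200. Replicate B again was the highest at day 45, and the lowest of that group lay inside the uninjected range. The change was 1.02 ± 0.46 at day 45 (adjusted p = 0.112) and 1.63 ± 0.52 at days 100 and 200 (adjusted p = 0.025). The late call was lost without the day 100 library (1.13, adjusted p = 0.257), without day 0 replicate B (1.54, adjusted p = 0.0658) or C (1.47, adjusted p = 0.072), and on the centred scale (1.15, adjusted p = 0.0858). The knockout had 0.343, 0.759 and 0.514 FPKM, a change of 0.93 ± 0.46 (adjusted p = 0.127). Its relative Plagl2, which is not imprinted, rose by 0.78 ± 0.22 at day 45 (adjusted p = 0.016), and that call was lost without day 0 replicate A (adjusted p = 0.0662), without day 45 replicate B (adjusted p = 0.0716) and on the centred scale (adjusted p = 0.103).

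Peg3, a large zinc finger protein, was nearly constant among uninjected livers at 1.00, 1.08 and 0.984 FPKM, and lies at mm9 chr7:6658671-6683130 on the minus strand. It was at 1.51, 1.36 and 0.797 FPKM at day 21, at 1.21, 1.22 and 1.08 FPKM at day 45, and at 2.87 and 2.02 FPKM at days 100 and 200. The day 45 values lay just above the uninjected ones, a change of 0.18 ± 0.38 that turns to -0.15 on the centred scale. The late change of 1.16 ± 0.43 passed with an adjusted p of 0.0479 and failed in 15 of 24 alternatives, with 0.92 (adjusted p = 0.293) without the day 100 library. The knockout livers split, with 0.344 and 0.689 FPKM in A and B and 1.49 FPKM in C, and the change was -0.45 ± 0.38 (adjusted p = 0.366). Without replicate C the change was -0.92 and passed the test (adjusted p = 0.0183). Zim1, the imprinted neighbour of Peg3 that also encodes a zinc finger protein, was at most 0.033 FPKM in any library, at most about 4.4 fragments, and is listed at 0 in 4 libraries. No difference in Zim1 was detectable at this depth.

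Mest encodes an enzyme of the alpha/beta hydrolase fold linked to growth and fat storage. It was at 1.01, 0.927 and 1.87 FPKM in uninjected livers, at 1.58, 2.27 and 2.17 FPKM at day 21, and at 1.74, 3.07 and 1.33 FPKM at day 45, and both groups overlapped day 0. The changes were 0.67 ± 0.35 (adjusted p = 0.274) and 0.62 ± 0.35 (adjusted p = 0.205). Days 100 and 200 had 2.99 and 2.54 FPKM, a change of 1.12 ± 0.39 (adjusted p = 0.039), which was lost without the day 100 library (1.01, adjusted p = 0.209), the day 200 library (1.24, adjusted p = 0.096), day 0 replicate A (1.00, adjusted p = 0.106) or B (0.94, adjusted p = 0.12), day 21 replicate B (adjusted p = 0.0508) or C (adjusted p = 0.05), or day 45 replicate A (adjusted p = 0.0504). The late call was also lost on the centred scale (0.64, adjusted p = 0.219) and with no minimum (adjusted p = 0.0534). In the knockout Mest went the other way, to 0.965, 0.486 and 0.898 FPKM, with a change of -0.62 ± 0.35 that did not pass (adjusted p = 0.177). Copg2, the coatomer gene that overlaps the end of Mest, changed by 0.01 at day 45 (adjusted p = 0.977).

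The microRNA of the Mest intron was followed in the small RNA libraries as reads per 1000000 reads other than miR-122, because miR-122 made up 59.2% to 73.3% of the uninjected libraries and 0.383% to 1.23% of those at day 45. On this scale miR-335 was at 1850, 1020 and 3520 in the uninjected livers, at 1390, 2790 and 2560 at day 21 and at 1410, 1690 and 3350 at day 45. The ranges overlapped at day 7, 14, 21 and 45, with log2 changes from day 0 of -0.16 ± 0.56, -0.34 ± 0.58, 0.19 ± 0.61 and 0.09 ± 0.64 (SE, n = 3 in each). In exact two-sided permutation tests no p was under 0.7 and every adjusted p over the 4 tests was 1.0, where 3 against 3 libraries cannot give less than 0.1. Scaled to all reads, miR-122 included, the uninjected livers had 495, 416 and 1170 and the day 45 livers 1400, 1680 and 3310, which do not overlap, a change of 1.67 with the lowest p the exact permutation test allows (0.1). The 2 scales gave day 45 changes of 1.67 and 0.09 from the same reads.

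Among the single libraries the one at day 36 stood far above the rest of the time course, at 22000 reads per 1000000 against 798 to 3520 in all the others. Wild-type livers up to P12 lay from below to above that value. E14 livers had 21000 and 117000, E18 livers 18700 and 27300, P1 livers 15400 and 31400, and P8 livers 38800 and 39200 reads per 1000000. The single P12 library had 31300 reads per 1000000. After it the level did not fall in order of age, since the P17 library had 8290 and the P21 library 27600. The P28 liver had 2390, and the P270 livers had 458 and 1410. The livers that the labels call LKO_flox had 1650 and 1080 and those called LKO_floxCre 1470 and 910, and miR-122 was already at 9.38% and 3.09% of reads in the LKO_flox libraries. The day 36 library has no replicate, and whether it is the sample its label names could not be settled from the files. Its miR-122 share was 11.4%, against 6.28% at day 25 and at most 1.23% at day 45, and miR-335 in those libraries was at 798 and at 1410 to 3350.

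**Figure D3:**
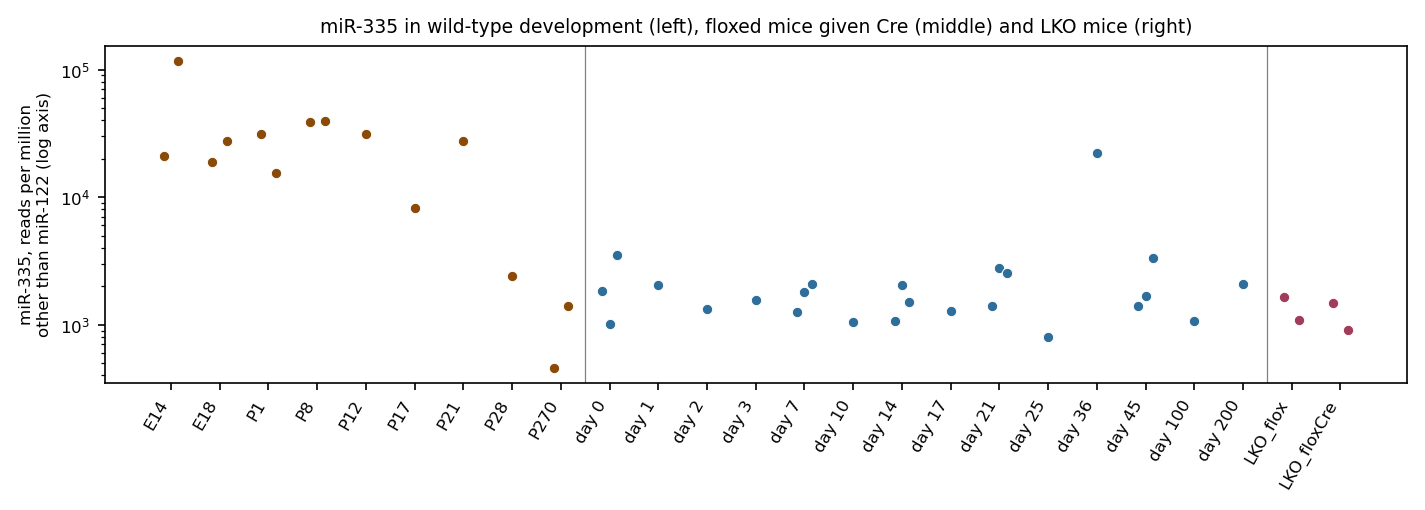
miR-335 in each small RNA library, as reads per 1000000 reads other than miR-122 on a log axis, for wild-type development (brown), floxed mice after Cre (blue) and LKO mice (red). Of the libraries after Cre, day 36 (22000) lies above and day 25 (798) below the uninjected range of 1020 to 3520, and E14 to P12 lie at 15400 or above.

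Ndn encodes necdin, a growth-restraining protein of the MAGE family, from a single exon at mm9 chr7:69493163-69494813. Uninjected livers had 0.803, 0.539 and 0.640 FPKM and day 45 livers 0.817, 0.918 and 1.08 FPKM, while days 100 and 200 had 0.763 and 0.688 FPKM. The day 45 change was 0.46 ± 0.32 (adjusted p = 0.327) and the late one 0.13 ± 0.36 (adjusted p = 0.813). Ndn was the 1 tested member whose late livers both lay inside the uninjected range. In the knockout replicates A and B had 2.28 and 2.14 FPKM and replicate C 0.802 FPKM, a change of 1.16 ± 0.32 (adjusted p = 0.0162) that was lost without replicate A (0.92, adjusted p = 0.0738), replicate B (0.96, adjusted p = 0.0789) or day 0 replicate B (1.05, adjusted p = 0.0632). Of its relatives that are not imprinted, Maged2 rose by 1.83 ± 0.29 at day 45 (adjusted p = 0.000886). Maged1 had a change of -0.13 (adjusted p = 0.755). Of the genes near Ndn, Atp10a, a phospholipid flippase, rose by 2.14 ± 0.32 (adjusted p = 0.000681) and Snrpn, a splicing protein, by 0.80 (adjusted p = 0.00628, and 0.0574 on the centred scale). Peg12 had a day 45 change of 0.90 (adjusted p = 0.0269) that was lost with a pseudocount of 1, on the centred scale (0.56, adjusted p = 0.124), with the replicate block and without any of the 3 day 0 replicates or day 45 replicate A or B (adjusted p of 0.0518 to 0.111), whereas Ube3a had a change of -0.34 (adjusted p = 0.74).

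Peg10, a gene derived from a retrotransposon and needed for the placenta, lies at mm9 chr6:4697306-4710516 on the plus strand. It varied widely among uninjected livers, at 0.144, 0.539 and 0.070 FPKM, and day 21 and day 45 overlapped them with 0.076 to 0.335 and 0.118 to 0.886 FPKM. Days 100 and 200 had 1.01 and 0.852 FPKM and the knockout 0.850, 1.09 and 0.996 FPKM, all above every uninjected library. The change was 1.78 ± 0.64 late (adjusted p = 0.0429) and 1.85 ± 0.57 in the knockout (adjusted p = 0.0254). Both calls were lost without day 0 replicate A (adjusted p = 0.108 and 0.0725) or C (adjusted p = 0.139 and 0.0976) and without knockout replicate A (adjusted p = 0.0501 and 0.0578) or B (adjusted p = 0.0535 and 0.084). On the centred scale the late change was 1.3 (adjusted p = 0.15), which did not pass. Nor did it pass with no minimum (adjusted p = 0.0545) or with a pseudocount of 0.01 (adjusted p = 0.055). The late call was also lost without the day 100 library (1.67, adjusted p = 0.199), the day 200 library (1.89, adjusted p = 0.116), day 21 replicate B (adjusted p = 0.0563) or day 45 replicate B (adjusted p = 0.0504). Its neighbour Sgce, the epsilon-sarcoglycan gene that shares its promoter region, changed by 0.70 at day 45 (adjusted p = 0.0628) and rose by 1.84 late (adjusted p = 0.000523), from a mean of 4.69 to 17.0 FPKM. Asb4, a ubiquitin ligase subunit in the same cluster, rose by 1.77 ± 0.39 at day 45 (adjusted p = 0.00427).

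The median gene lay 0.549 above day 0 on the log2 scale at day 100 and 0.408 at day 200. Of the 2 late livers the day 100 one was likewise the higher for all 8 members tested. Without it the number of members called fell from 6 to 1, Grb10, and without the day 200 library to 3, while all genes called higher fell from 4885 to 2772 and to 3758. Either step leaves 1 late library, which is then assumed to vary like the other groups. It also was 3 without any 1 of the day 0 replicates or without day 21 replicate B. When every library was set to the same median, 1 of 8 members was called late, while all genes split into 2882 higher and 1533 lower in place of 4885 and 414. At day 45 the same step gave 1 of 8 members, Igf2r, with 2638 genes higher and 1164 lower in place of 4141 and 394. The 4 knockout calls fell to 0 without knockout replicate B, to 1 without replicate A or day 0 replicate C, and to 2 without day 0 replicate A or B. All genes called higher in the knockout fell in those fits from 3143 to 1837 without knockout replicate B, 2148 without A, and 2116 to 2618 without a day 0 replicate.

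Lists of related genes were read in the same fit. Of 25 neighbours tested in the members' own clusters, 12 rose and none fell at day 45, with a median change of 0.76 beside 0.33 for all genes. At days 100 and 200, 11 rose and none fell, and in the knockout 10 rose and 4 fell, Ube3a, Tfpi2, Pon2 and Pon3. Of all genes, 29.4% rose at day 45, 34.6% late and 22.3% in the knockout, where 13.2% fell, and the same shares are the background of the next list. Of 14 imprinted genes tested in other parts of the genome, 6 rose at day 45, with a median of 0.14, 6 rose and none fell late, with a median of 0.26, and in the knockout 3 rose and 4 fell, with a median of -0.05. At day 45 the 6 were Nnat (1.66 ± 0.46, adjusted p = 0.0154), Trappc9 (1.31 ± 0.23, adjusted p = 0.00146), Dcn (1.07 ± 0.27, adjusted p = 0.00902), Impact (1.09, adjusted p = 0.00112, with a late change of 1.07 that was lost on the centred scale, adjusted p = 0.0619), Gatm (0.94 ± 0.25, adjusted p = 0.0134) and Peg13 (0.83 ± 0.18, adjusted p = 0.00446). Dcn encodes decorin, a matrix protein of fibroblasts and stellate cells, and was at a mean of 144 FPKM at day 0 and 299 at day 45. Nnat, a small membrane protein of the endoplasmic reticulum, went from a mean of 0.187 FPKM to 0.725 at day 45 and 2.35 late. The Nnat call at day 45 was lost without day 0 replicate B (1.25, adjusted p = 0.0728) or C (1.54, adjusted p = 0.0512) or day 45 replicate B (1.35, adjusted p = 0.0784), and those of Dcn (0.73, adjusted p = 0.063) and Peg13 (0.50, adjusted p = 0.0527) on the centred scale, as was the late call of Trappc9 (0.64, adjusted p = 0.0707). The Gatm call at day 45 was lost without day 0 replicate A (adjusted p = 0.0587) or day 45 replicate B (adjusted p = 0.0618), and its late call without the day 100 library (0.97, adjusted p = 0.0874), and on the centred scale both were lost (0.60 and 0.65, adjusted p = 0.082 and 0.0827).

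The relatives without imprints gave 3 of 8 higher at day 45 and 4 of 8 late, with median changes of 0.40 and 0.63. Of 12 genes tested that write, keep or remove DNA methylation, guard imprints or silence Igf2, H19 and Afp in adult liver, 3 rose at day 45 and 4 late, with medians of 0.43 and 0.65. These shares of relatives and factors stand beside 29.4% of all genes at day 45 and 34.6% late, and for the factors they lie near or below that background. Uhrf1, which brings the maintenance methyltransferase to replicating DNA, rose by 2.89 ± 0.51 at day 45 (adjusted p = 0.00137) from a mean of 0.155 FPKM to 1.77, and Dnmt1, that methyltransferase, by 0.99 ± 0.25 (adjusted p = 0.0104). Summed proliferation markers went from 2.27 to 9.75 FPKM at day 0 to 15.4 to 31.0 at day 45, and their part in these changes was not tested. The Dnmt1 call at day 45 was lost without day 45 replicate B (0.82, adjusted p = 0.0566) and its late call without the day 100 library (0.78, adjusted p = 0.118). Dnmt3a, a de novo methyltransferase, rose by 0.71 ± 0.25 (adjusted p = 0.0481), a call lost in 14 of 25 alternatives. Zfp57 was at a mean of 0.237 FPKM at day 0 and rose late to 0.601 (1.08 ± 0.32, adjusted p = 0.0189), which was lost without the day 100 library (0.89, adjusted p = 0.171) or day 0 replicate B (0.84, adjusted p = 0.0735), or on the centred scale (0.60, adjusted p = 0.165).

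**Figure D4:**
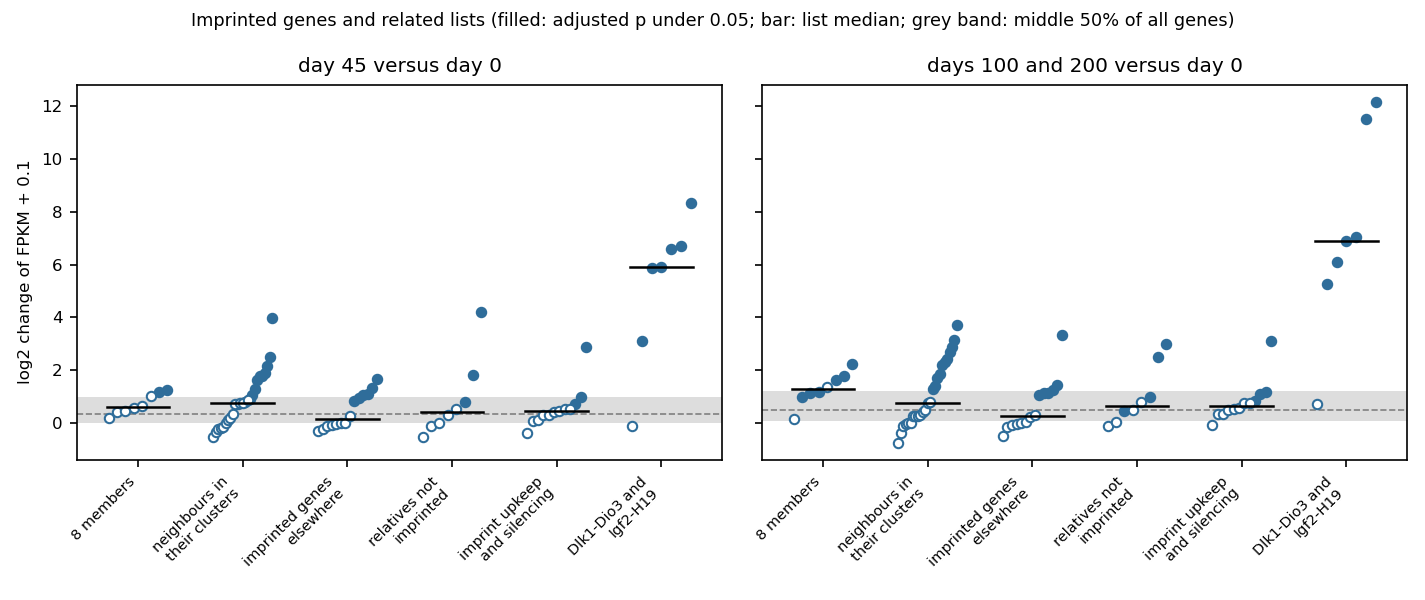
Log2 change of FPKM + 0.1 at day 45 (left) and days 100 and 200 (right) for the 8 members and 5 lists of genes, each gene as a point that is filled where adjusted p is under 0.05, with the list median as a bar and the middle 50% of all genes as a grey band. The day 45 medians were 0.59 for the members, 0.76 for their neighbours and 0.14 for imprinted genes elsewhere, against 5.9 for the Dlk1-Dio3 and Igf2-H19 genes.

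Between day 21 and day 45, with 1.03% of genes called, no member passed the test in limma, and 1 of 8 had an unadjusted p under 0.05, Grb10 with a change of 0.95 ± 0.39, where 18.2% of all genes did. The knockout and day 45 livers, the latter depleted of miR-122 by Cre, were compared directly. Mest was lower in the knockout by 1.24 ± 0.35 on the log2 scale (adjusted p = 0.0425) and Igf2r by 0.88 ± 0.26 (adjusted p = 0.0496), where 10.1% of all genes were called lower. Both calls sit at the threshold: no member was called without knockout replicate A or without B, and without replicate C 5 of 8 were, 2 higher and 3 lower. The whole table moved with them, from 1634 genes called to 370 without A, 331 without B and 6635 without C. The knockout libraries come from other mice without virus.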

How the data were processed

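Liver RNA was poly-A purified, and its paired reads were aligned by the authors to mm9 with TopHat. The authors computed the deposited FPKM with Cufflinks 2.2.1 (quartile normalisation, without ribosomal, snoRNA and mitochondrial sequences). The authors aligned small RNA reads with Bowtie 0.12.7, and the deposited values are reads per 1000000 (RPM) plus 1. FPKM are not counts, so no count model and no counting interval were used.

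FPKM of repeated symbols were summed, and the 14104 of 21888 symbols with a mean of at least 0.1 FPKM entered 1 limma 3.58.1 fit (R 4.3.3) of log2(FPKM + 0.1) with 5 groups and a trended variance. Adjusted p-values are Benjamini-Hochberg values over these genes. Changes on this scale understate those of low genes. The fit was checked on simulated data. Depth was estimated from the steps between low FPKM values of genes with 1 transcript and is approximate. For miR-335 the added 1 was removed, values were rescaled to reads other than miR-122, and exact permutation tests were run on log2 values (SciPy 1.17.1). The listed RPM of 3 small RNA libraries (replicate A of E14 and of P270, and P28) sum to less than 1000000, and rescaling used the listed values.

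The members and lists were chosen with earlier results of these data known. Genes named are the 10 members, Meg3 and H19, the 3 nearest profiles of each member called at day 45, and from each list the at most 5 with the largest change past the threshold at day 45 or late. Impact and other neighbours and relatives were named after their values were seen. Serpina1a was left out of the hepatocyte sum after its zeros were seen (with it, 15000 to 22500 FPKM late and 23800 to 31400 in the knockout). Of the nearest profiles, 1 is not reported here. Alternatives were the pseudocount, the minimum level, the scaling, 1 row per symbol, a fit of only the groups compared, a robust fit, a replicate block and leaving out each library.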

Additional observations from a re-analysis of the deposited data

Results flagged for a closer look

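The 2 members Mest and Igf2r differed between the knockout and the day 45 livers by a test of that difference itself. Mest was lower in the knockout, with a log2 difference of -1.24 (limma, adjusted p = 0.0425), and its 3 knockout libraries (0.486 to 0.965 FPKM) lay below all 3 at day 45 (1.33 to 3.07 FPKM). Igf2r had a difference of -0.88 (adjusted p = 0.0496), with 5.93 to 9.63 FPKM in the knockout and 11.9 to 17.0 FPKM at day 45. The Mest call was lost in 17 and the Igf2r call in 21 of 25 alternatives, and summed endothelial markers were also lower in the knockout (74.3 to 84.3 FPKM, against 180 to 184 at day 45). The part of those cells in the differences was not tested. Beyond the fits that left out 1 library at a time, groups of 1 to 3 libraries were not searched by a rule for a sample far from its group. Knockout replicate C and the day 36 small RNA library, named above, were noticed in the results.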

How the results depend on the processing

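The letters of the replicates did not pair the libraries: of 18 pairs with the same letter, 7 deviated together with a correlation over 0.1 (range -0.385 to 0.468), and no label says what a letter marks. With a replicate block the genes called were 879 in place of 1384 at day 21, 0 in place of 145 for day 45 against day 21 and 757 in place of 1634 for the knockout against day 45, and the members called in that last comparison were 0 in place of 2. The block left 2 members called at day 45 and 4 in the knockout, and gave a miR-335 change of 0.09 at day 45. Members called late, 6 of 8 as reported, were 3 of 10 with no minimum, 3 of 5 with a minimum of 1 FPKM and 1 of 8 on the centred scale, and at day 45 1 of 8 on the centred scale. With the minimum of 1 FPKM Plagl1, Peg10 and Ndn were not tested, and of the late calls tested Peg3 was lost. In the knockout they were 2 of 5 with a minimum of 1 FPKM and 2 of 5 with that minimum and a pseudocount of 1, where Cdkn1c and Grb10 kept their calls and Ndn and Peg10 were not tested, and 0 of 8 in a fit of only the 2 groups. For the knockout against day 45 they were 1 with a pseudocount of 1 or 0.01, 1 of 5 with a minimum of 1 FPKM, and 0 with no minimum, with the minimum and pseudocount of 1, on the centred scale and with only the 2 groups. All genes called at day 21 were 865 with the minimum and pseudocount of 1 and 2202 with only the 2 groups, late 3528 with a minimum of 1 FPKM, and in the knockout 1897 with only the 2 groups. For day 45 against day 21 they were 17 with a pseudocount of 1, 58 with a minimum of 1 FPKM, 31 with both, 78 centred and 4 with only the 2 groups. For the knockout against day 45 they were 1035, 1072, 703 and 107 with a minimum of 1 FPKM, with both, centred and with only the 2 groups.

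Leaving out 1 library at a time gave 455 to 2789 genes at day 21, 2863 to 6122 at day 45, 2876 to 6951 late, 2551 to 8577 in the knockout, 0 to 1489 for day 45 against day 21 and 331 to 6635 for the knockout against day 45. Members called were then 0 at day 21, 1 to 2 at day 45, 1 to 7 late, 0 to 5 in the knockout, 0 for day 45 against day 21 and 0 to 5 for the knockout against day 45. The miR-335 change at day 45 ran from -0.35 to 0.54, at day 21 from -0.25 to 0.64, at day 14 from -0.78 to 0.11 and at day 7 from -0.61 to 0.29. Scaled to all reads, the day 14 and day 7 changes of miR-335 were 0.88 and 0.37. On the centred scale the sign turned for Ndn at day 21 (-0.08) and late (-0.35), for Peg3 at day 45 (-0.15) and for M6pr late (-0.02). With 1 library left out at a time it turned for Ndn at day 21 (-0.07 to 0.18), for Peg10 at day 21 (-0.51 to 0.44) and for Peg10 at day 45 (-0.23 to 0.97). None of the members, loci and list genes whose sign turned had passed the test except M6pr late. Over the 105 single-gene and miR-335 results, 2281 of 2495 recomputed values kept their direction and side of the threshold. The cause was not tested beyond the construction of each alternative.

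With 1 to 3 libraries a group, a change smaller than the spread between libraries could not be shown. Zim1 and Kcnq1ot1 were too low to be read.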
